A study of Mus musculus with 3 samples.

Results

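Insl3, which encodes insulin-like peptide 3, was followed across an in vitro differentiation of mouse testis cells into Leydig cells. It is 1 gene of the 24698 listed in the authors' merged table of UMI counts (UMIs are molecular tags that mark single captured transcripts), and its counts were read in the columns named for days 4, 7 and 14. Sca1+/cKit- cells were sorted from the testes of adult C57BL/6 males aged 8 to 12 weeks and plated at 100000 cells per well on Matrigel. They recovered for 18 h in medium with 10% FBS and were then expanded for 3 days with PdgfAA, PdgfBB and Fgf2 (each 10 ng/ml) and SAG (0.5 uM), an agonist of Hedgehog signaling. Differentiation medium held the same factors plus 5 mM LiCl2, which activates Wnt signaling, and 10 uM DAPT, an inhibitor of Notch cleavage. The sort, plating and expansion were common to all 3 days. Per the study's account, day 4 cells were taken after expansion medium, while days 7 and 14 followed the change to differentiation medium. Medium and time therefore cannot be told apart between day 4 and the later days, and no untreated culture entered the comparison.

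Insl3 belongs to the relaxin and insulin family of secreted peptide hormones. In the testis it is made by Leydig cells, where it marks both fetal and mature adult cells, and its receptor Rxfp2 on the gubernaculum directs the descent of the testis. Steroid synthesis is the other main output of Leydig cells. It begins with Star, which moves cholesterol into mitochondria, and Cyp11a1, which cuts the cholesterol side chain. Hsd3b1 and Cyp17a1 then act on the way to androgens. Nr5a1 is the nuclear receptor that drives this set of genes, Insl3 included, and Lhcgr is the receptor for luteinizing hormone.

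Insl3 (ENSMUSG00000079019.2) lies on the plus strand of chromosome 8 at 71689214 to 71690575 (GRCm38, GENCODE M21). It is a protein-coding gene of 2 exons, at 71689214 to 71689432 and 71690172 to 71690575. The whole gene sits inside Jak3 (71676296 to 71690575), a kinase gene of blood cells on the same strand that ends at the same base. Exons of Jak3 cover 404 of the 623 exon bases of Insl3, which is 64.8%, so reads from the common 3′ end cannot be assigned to 1 gene by position alone. Values of Jak3 are therefore given below. The stretch before the first exon is shown because it carries copies of the AAGGTC core of the element that Nr5a1 binds. It is chr8:71689002-71689213 on the plus strand (212 bases, RefSeq, GRCm38.p6), and capitals mark AAGGTC and its reverse complement GACCTT.
Insl3: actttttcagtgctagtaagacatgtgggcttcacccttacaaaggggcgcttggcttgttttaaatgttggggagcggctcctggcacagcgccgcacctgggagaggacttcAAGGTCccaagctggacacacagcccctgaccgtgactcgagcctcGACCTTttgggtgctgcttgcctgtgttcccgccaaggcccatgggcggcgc
The 2 matches begin 136 and 90 bases before the RefSeq start of transcription. Of 32851 RefSeq promoters, 10.6% held AAGGTC on either strand in the 250 bases before the start, and 0.673% held it 2 or more times. A match is a description of letters and not a measured binding site.

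Each day is 1 Drop-seq library, so day and library cannot be told apart, no test was possible, and every interval below (95%) covers counting error only. Day 4 held 2980 cells with a median of 2886.5 UMIs, day 7 held 2171 cells with a median of 3285.0 and day 14 held 973 cells with a median of 3272.0. No barcode of these cells occurred in more than 1 library. Within a library, however, many columns shared the first 11 of their 12 barcode bases with another column. These were 1304 cells on day 4, and then 1026 and 504 in the later libraries (51.8% of the last). Summing such columns left 2027, 1414 and 601 barcode groups, of which 274, 229 and 115 held 4 columns, 1 for each possible last base. Columns of a group resembled each other. Over the 2 deepest columns of each of 132 groups on day 14, Insl3 per 10000 UMIs had a Spearman rho of 0.79, against -0.05 for columns of neighbouring groups, and the median correlation of their whole profiles was 0.52 against 0.47. Counts of cells are therefore given as deposited and again with these columns summed, and levels over all UMIs of a day do not depend on the choice.

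Insl3 was near the limit of detection on days 4 and 7 and among the most abundant transcripts on day 14. On day 4, 43 Insl3 UMIs were counted, a level of 3.39 UMIs per 1000000 UMIs of the library (CPM, interval 2.45 to 4.57). On day 7, 91 UMIs gave 7.83 CPM (6.30 to 9.61). On day 14, 9567 UMIs gave 1797 CPM (1761 to 1833), and the gene ranked 74th by level of 18857 genes with a UMI, after 10330th on day 4 and 8755th on day 7. Counts are per transcript and 3′-based, so these ranks compare tagged transcripts without a correction for length. The order of the 3 levels was therefore day 4, day 7 and day 14, and the counting intervals of no 2 days overlapped.

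The level on day 14 was 230 times that of day 7 (interval 187 to 285) and 530 times that of day 4 (393 to 732). The size of these ratios moved with the choice of cells and their weight. Day 14 over day 7 was 139.6 with equal weight per cell. Day 14 over day 4 was 1225 without the 6% of cells with the most UMIs. Without the 1% of cells richest in Insl3, day 14 over day 7 was 932. Those cells were picked by Insl3 itself, and the day 7 level fell from 7.83 to 1.74 CPM without them, so this shift follows from the choice. Among the 6773 genes with at least 20 CPM on either day, 10.2% stood at least 2-fold higher on day 14 than on day 7, and Insl3 had the rank 2 by fold, behind Cyp17a1. Against day 4 the share was 13.3% of 6734 genes, and Insl3 had the rank 3. Cyp11a1 was 36.8 times its day 7 level (34.0 to 39.9), Hsd3b1 87.6 times (76.9 to 100.1) and Star 2.80 times (2.69 to 2.91). Between days 4 and 7 the ratio for Insl3 was 2.31 (1.59 to 3.40) on counts too few to enter the ranking, and it was 7.24 (4.10 to 13.8) without the 6% of cells with the most UMIs.

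A UMI of Insl3 was found in 10 of 2980 cells on day 4 (0.336%, interval 0.161 to 0.616), in 42 of 2171 on day 7 (1.93%, 1.40 to 2.61) and in 696 of 973 on day 14 (71.5%, 68.6 to 74.3). With columns of a barcode group summed, 7 of 2027, 35 of 1414 and 476 of 601 groups held it, which is 0.345%, 2.48% and 79.2%. When each cell was thinned to 1500 UMIs, with 753, 429 and 179 shallower cells left out, the shares were 0.206%, 1.2% and 62.2%. Thinned barcode groups gave 59.7% on day 14. How a cell and its depth were defined thus moved the share on day 14 between 53.2% (thinned to 1000 UMIs) and 79.2%, and that on day 7 between 0.845% and 2.48%.

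**Figure D1:**
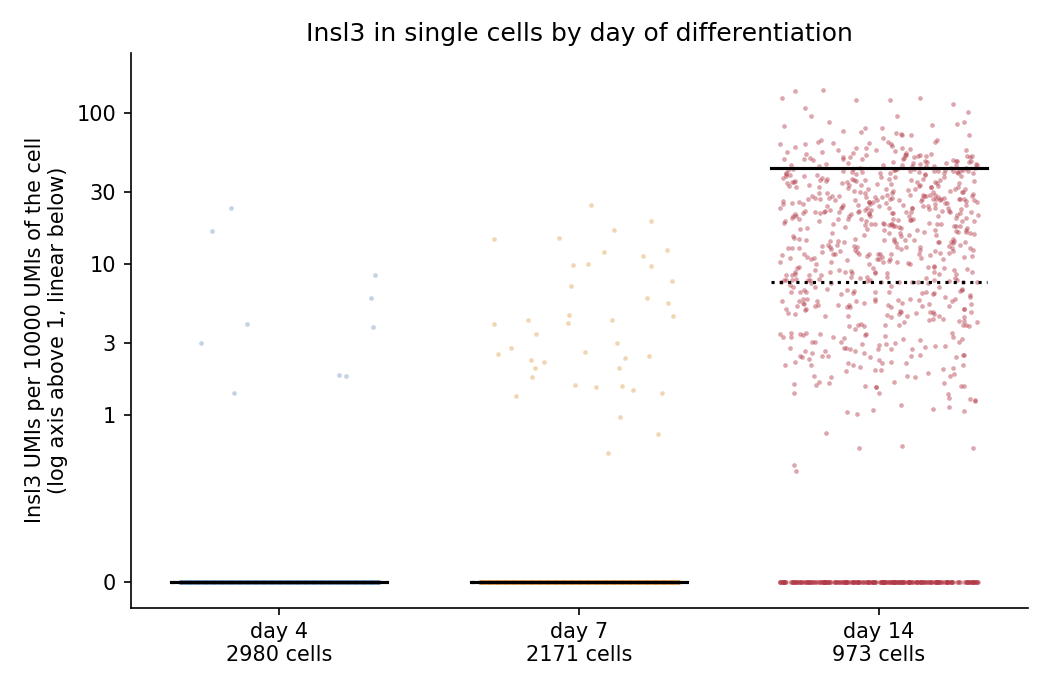
Insl3 UMIs per 10000 UMIs of each cell by day, with 1 point per cell, the 90th percentile as a solid line and the median as a dotted line (both at 0 on days 4 and 7). On day 14 the median was 7.62 and the 90th percentile 43.0, while all cells but 10 on day 4 and 42 on day 7 sat at 0.

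**Figure D2:**
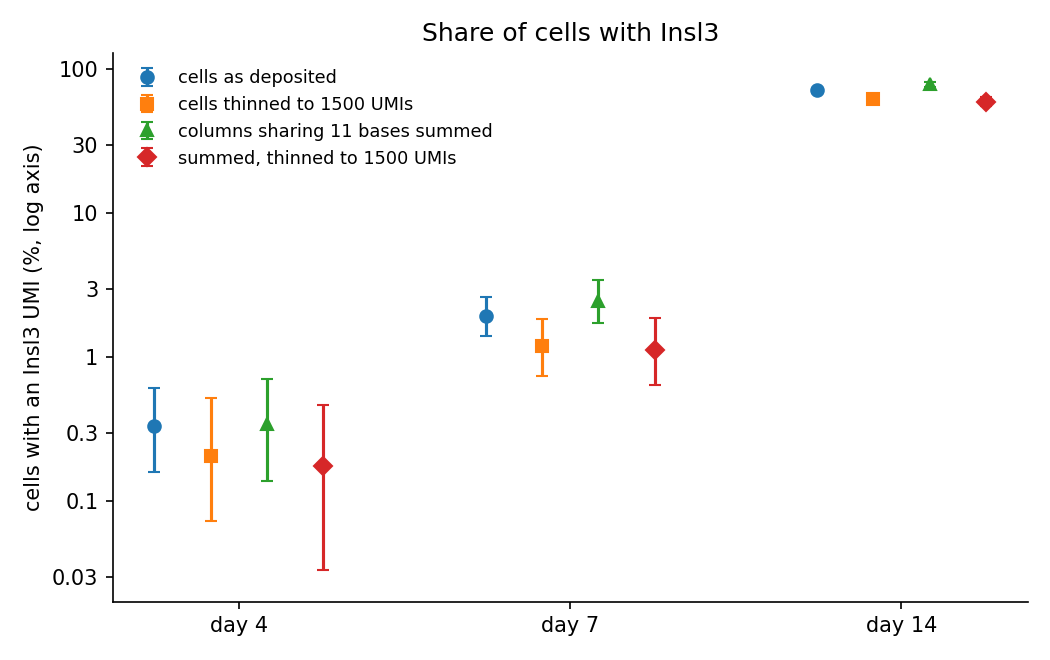
Percent of cells with an Insl3 UMI by day on a log axis, for cells as deposited, cells thinned to 1500 UMIs, columns sharing 11 barcode bases summed, and both, with 95% exact binomial bars. For the thinned versions the bars were computed on the expected number of cells rounded to a whole number, so they are approximate. Day 14 lies between 59.7% and 79.2% in every version and day 7 between 1.12% and 2.48%.

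The few Insl3 transcripts of days 4 and 7 were concentrated in few cells. On day 4, 5 cells held 38 of the 43 UMIs. A cell with 16 Insl3 UMIs also held 94 of Cyp11a1, 52 of Star and 50 of Hsd3b1, and a cell with 13 held 49, 30 and 27. The next 3 cells, with 4, 3 and 2 UMIs, belonged to 1 barcode group of 4 columns, and the fourth column of that group held 1 more. The other 4 cells each had 1 Insl3 UMI and none of Cyp11a1. On day 7 the highest count in a cell was 7, and 20 of the 42 cells held a single UMI. A group of 4 columns there held 4, 4, 4 and 3 Insl3 UMIs beside 69, 43, 32 and 41 of Cyp11a1. Of the 42 cells, 35 also held a Star UMI, 25 Cyp11a1, 19 Hsd3b1 and 4 Cyp17a1.

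On day 14 the gene was spread over most of the culture. The cells held 0 to 191 Insl3 UMIs, with a lower quartile of 0, a median of 2, an upper quartile of 10 and a 90th percentile of 27. Per 10000 UMIs the median was 7.62 and the maximum 141, and among the 696 cells with a UMI the median was 16.1. A single UMI was found in 141 cells and 10 or more in 254. The 98 cells richest in Insl3 (10%) held 58.6% of its UMIs and 27.1% of all UMIs. Deep cells weigh in this value. By Insl3 per UMI, with equal weight for each cell of at least 1500 UMIs, the richest 10% held 37.3% of the summed level. By UMI count, the 10% of cells richest in each gene held 71.9% of Cyp11a1, 95.2% of Cyp17a1 and 54.5% of Star. With barcode groups as the unit, the richest 61 groups held 48.3% of Insl3 and 92.8% of Cyp17a1. After thinning to 1500 UMIs, the variance of the Insl3 count over cells was 4.25 times its mean (1 is the value for random sampling from identical cells). The same ratio was 13.5 for Cyp17a1, 8.06 for Cyp11a1, 7.26 for Hsd3b1 and 2.33 for Star. The 3 enzymes were more concentrated than Insl3 by both measures. For Star the order depended on the measure, since with barcode groups as the unit the richest held 48.9% of Star, against the 48.3% for Insl3. Insl3 ranked 22nd by this ratio among 2431 genes with a thinned mean of at least 0.1.

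Co-detection was then read for Insl3, Cyp11a1 and Cyp17a1. On day 14, 200 cells held all 3, 287 held Insl3 and Cyp11a1 without Cyp17a1, 19 held Insl3 and Cyp17a1 without Cyp11a1, and 190 held Insl3 alone. Of the cells without Insl3, 14 held both enzymes, 55 Cyp11a1, 9 Cyp17a1 and 199 none of the 3. Median depth was 1732.0 UMIs in cells with none of the 3 and 6329.5 in cells with all of them. Most cells with either enzyme also held Insl3, and most Insl3 cells held Cyp11a1, but only a minority held Cyp17a1. Insl3 was found in 219 of 242 cells with Cyp17a1 (90.5%, interval 86.1 to 93.9) and in 487 of 556 with Cyp11a1 (87.6%, 84.6 to 90.2), while Cyp17a1 was found in 31.5% (28.0 to 35.1) of the Insl3 cells and Cyp11a1 in 70.0% (66.4 to 73.4). Thinned to 1500 UMIs, these 4 shares were 86.5%, 82.7%, 23.7% and 62.7%. With columns of a barcode group summed they were 93.4%, 88.3%, 38.9% and 74.4%.

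Because deep cells show more genes of every kind, the cells with both genes were also set against the number given by the margins within 10 depth bins of each library. On day 14, Insl3 and Cyp17a1 shared 219 cells against 188 from the margins, a ratio of 1.16 (1.013 to 1.327), where 1.28 is the largest value these margins allow. Insl3 and Cyp11a1 shared 487 cells against 419, also 1.16 (1.06 to 1.27) of at most 1.33. Cyp11a1 and Cyp17a1 gave 1.36 of at most 1.54. With columns summed the 3 ratios were 1.12, 1.08 and 1.22, and the intervals of both Insl3 ratios then included 1 (0.968 to 1.298 and 0.973 to 1.201), so the excess on day 14 did not hold beyond counting error in that version. On day 7, where the genes were rare, 25 cells held Insl3 and Cyp11a1 against 0.949 from the margins, and 4 held Insl3 and Cyp17a1 against 0.180. With columns summed, these were 18 barcode groups against 0.855 and 3 against 0.134. On day 4, 6 cells held Insl3 and Cyp11a1 against 0.148, or 3 barcode groups against 0.104 with columns summed. No cell of day 4 held Insl3 and Cyp17a1, a gene with 2 UMIs in all on that day.

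The Insl3 level followed the enzymes within each day. On day 14 it was 716 CPM (671 to 763) in the 389 cells with neither enzyme, 1563 CPM (1508 to 1620) in the 342 with Cyp11a1 and no Cyp17a1, 1017 CPM (873 to 1179) in the 28 with Cyp17a1 and no Cyp11a1, and 2885 CPM (2809 to 2963) in the 214 with both. The level with both was 4.03 times that with neither (3.76 to 4.32) and 1.85 times that with Cyp11a1 alone (1.77 to 1.93). The step was much wider on day 7, at 1.85 CPM in 2121 cells with neither, 228 CPM in 42 with Cyp11a1 alone and 710 CPM (406 to 1153) in 6 with both. These 6 cells came from 3 barcode groups. On day 4 it was 0.320 CPM in 2954 cells with neither and 213 CPM (152 to 291) in 24 with Cyp11a1 alone.

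**Figure D3:**
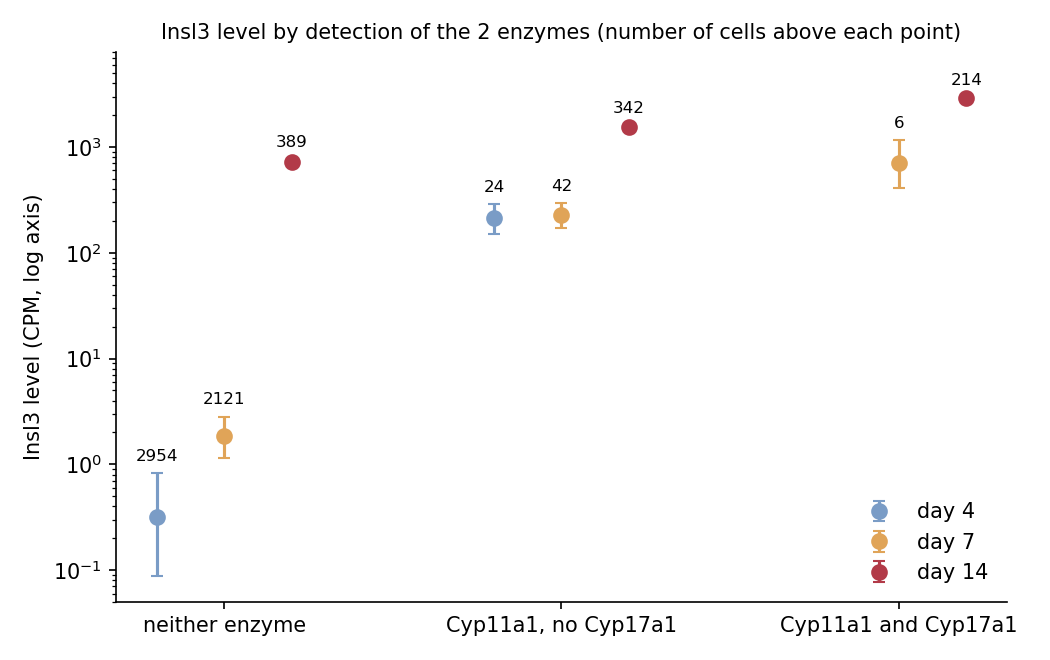
Insl3 level in CPM on a log axis by detection of Cyp11a1 and Cyp17a1, by day, with exact Poisson 95% bars and the number of cells above each point. Cells with Cyp17a1 alone (2, 2 and 28) are left out, and no cell of day 4 held both. Cells of day 14 with neither enzyme, at 716 CPM, stood above the cells of days 4 and 7 with Cyp11a1 alone, at 213 and 228 CPM.

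The amount of each enzyme transcript gave a graded picture on day 14. Insl3 stood at 1215 CPM in the 731 cells with no Cyp17a1 UMI, 1912 in the 122 with 1 to 2, 2648 in the 50 with 3 to 9, 3120 in the 34 with 10 to 29 and 4368 CPM (4178 to 4565) in the 36 with 30 or more. Every cell of the last 2 classes held Insl3. For Cyp11a1 the levels were 751, 876, 1869, 2591 and 3324 CPM over the same classes, and all 95 cells with 30 or more Cyp11a1 UMIs held Insl3. The neighbouring classes of both series had Poisson intervals that did not overlap. The classes with 30 or more UMIs were also the deepest. Their median depth was 9221.5 UMIs for Cyp17a1 and 11006.0 for Cyp11a1, against 2885.0 and 2321.0 in cells with none. Between these ends depth did not follow the classes in order, at 6080.5 UMIs with 1 to 2 Cyp17a1 UMIs and 3403.0 with 10 to 29. The shares by class were not thinned.

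The gap between days was also read within cells that held Cyp11a1, a comparison added after the values were seen. Such cells made up 0.805% of day 4, 2.21% of day 7 and 57.1% of day 14, and held 90.7%, 76.9% and 88.1% of each day's Insl3 UMIs. Their Insl3 level was 213 CPM (152 to 291) and 269 CPM (210 to 340) in the first 2 libraries, and 2214 CPM (2167 to 2262) on day 14. The ratio of day 14 to day 7 within them was 8.22 (6.50 to 10.6), against 230 over all cells. In the cells without a Cyp11a1 UMI it was 406 (264 to 659), from 21 Insl3 UMIs on day 7 and 1140 on day 14. In cells with at least 20 Cyp11a1 UMIs per 10000, of which there were 7, 23 and 267, Insl3 was 671, 633 and 3246 CPM, a day 14 to day 7 ratio of 5.13 (3.89 to 6.89). Cyp11a1 itself stood at 3889, 7141 and 5926 CPM in the selected cells of days 4, 7 and 14. The number of Insl3 UMIs per Cyp11a1 UMI in these selected cells was 0.173, 0.0887 and 0.548 by day. Cells picked by the same Cyp11a1 threshold thus carried more Insl3 on day 14, in 1 library per day. With columns summed, only 4, 9 and 165 barcode groups met the threshold, and the ratio of day 14 to day 7 was 5.43 (4.10 to 7.35).

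An effect of free RNA on these shares was not tested, and the barcodes that the cell filter left out are described beside the cells. The tables per day hold 7000 barcodes, of which 6128 pass the study's limits on gene number (500 or more) and mitochondrial share (10% or less), and 6124 are in the merged table, the number of cells the methods state. The barcodes left out held no Insl3 on day 4 (0 of 160789 UMIs, which allows up to 18.7 CPM) and none on day 7 (0 of 119706, up to 25.1 CPM). On day 14 the 327 left out, with a median of 319 UMIs, held 211 Insl3 UMIs in 100 barcodes. That is 1704 CPM (1482 to 1950), close to the 1797 CPM of the cells used. Their Insl3 UMIs per Cyp11a1 UMI came to 0.664. Cells used that held neither Hsd3b1 nor Cyp17a1 had 567 CPM of Insl3 and 2.18 Insl3 UMIs per Cyp11a1 UMI, and cells with either gene had 2348 CPM and 0.807. The ratio of the 2 transcripts therefore differed between these sets, although the first set was chosen for the absence of genes that go with Cyp11a1. The part of free RNA in the Insl3 of enzyme-poor cells was not tested.

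Cells picked by genes of other types give a background for the shares. On day 14, 99 cells held a UMI of Acta2 or Tagln, genes of myofibroblasts and smooth muscle. Insl3 was found in 47.5% of them (37.3 to 57.8) at a median of 6416.0 UMIs and a level of 612 CPM (559 to 668), beside 954 CPM of Cyp11a1. After thinning to 1500 UMIs the share was 27.3%. Of the 389 cells with neither enzyme, 190 held Insl3 (48.8%, median 2304.0 UMIs), and after thinning the share was 39.4%. Their level of 716 CPM (671 to 763) was above the 612 CPM of the Acta2 or Tagln cells, while with columns summed the intervals overlapped (625 to 725 against 565 to 670 CPM). Since the cells with Acta2 or Tagln carry Cyp11a1 too, they are an imperfect background. Only 4 cells of day 14 held 2 or more macrophage genes, and 1 of these had Insl3. Cells of days 4 and 7 with Acta2 or Tagln held Insl3 in 0.0737% and 1.05%.

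Insl3 detection went with the number of other Leydig genes in a cell. The list was Star, Cyp11a1, Cyp17a1, Hsd3b1, Hsd3b6, Hsd17b3, Lhcgr and Nr5a1. On day 14, Insl3 was found in 25.2% of 143 cells with none of the 8, 53.8% of 199 with 1, 70.5% of 156 with 2, 86.7% of 158 with 3, 95.8% of 167 with 4 and 97.3% of 150 with 5 or more. The level went from 207 CPM (162 to 262) to 2933 CPM (2852 to 3016) over these classes. Median depth went the same way, from 1580.0 to 9472.0 UMIs, and after thinning to 1500 UMIs the shares still ran from 19.9% to 88.1%. On day 7 the share was 0.564% in 1064 cells with none of the genes and 6.38% in 141 with 2. Insl3 was found in 6 of 9 cells with 3 of the genes and in 9 of 10 with 4. With columns summed, these 2 classes were 1 of 3 and 7 of 7 barcode groups. On day 4, 3 of 11 cells with 3 of the genes and 3 of 4 with 4 held Insl3, and 3 of 1973 cells with none of them. With columns summed, the 3 groups of day 4 with Insl3 and Cyp11a1 were all in the class with 4 genes, and 1 further group held 1 Insl3 UMI and, of the list, Star alone.

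**Figure D4:**
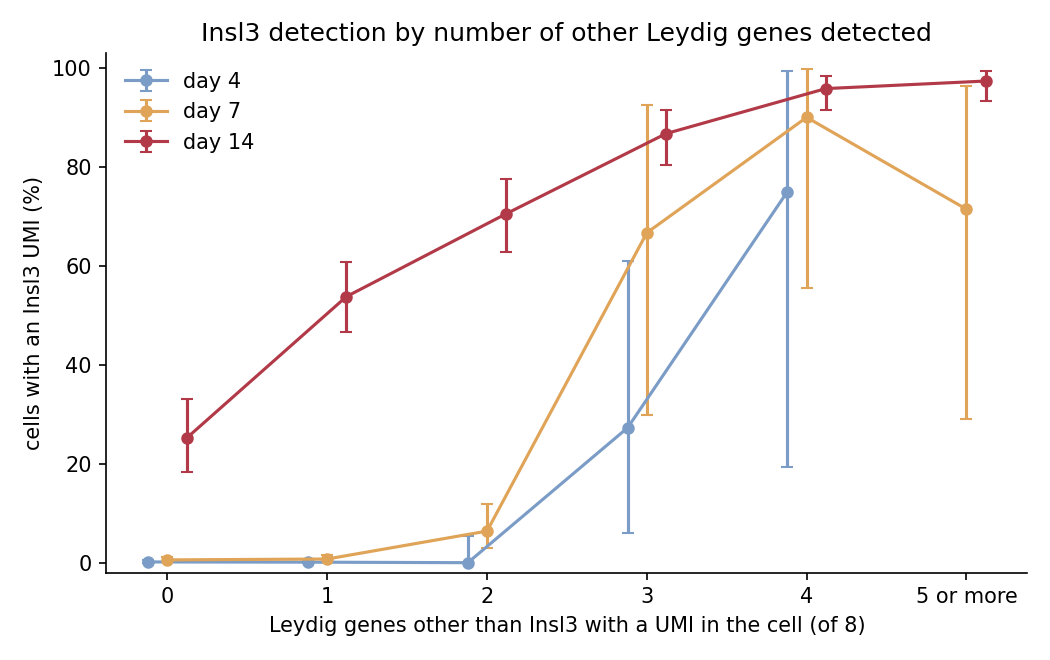
Percent of cells with an Insl3 UMI by how many of 8 other Leydig genes had a UMI in the cell, by day, with 95% exact binomial bars. On day 14 the share climbs from 25.2% to 97.3%, and on days 4 and 7 it is at most 6.38% up to 2 genes and higher from 3 genes on, in at most 11 cells per point. Cells are columns as deposited, some of them from the same barcode group.

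The genes whose level per 10000 UMIs was most like that of Insl3 were read over the 973 cells of day 14. By Spearman rho over 5491 genes with a UMI in at least 10% of the cells, the first 10 were Hsd3b1 (0.61), Gsta2 (0.58), Cyp11a1 (0.57), Adh1 (0.57), Akr1cl (0.56), Cst8 (0.55), Tsc22d1 (0.53), Fdx1 (0.51), Gramd1b (0.50) and Gsta4 (0.49). Gsta2 and Gsta4 are glutathione transferases, Adh1 is an alcohol dehydrogenase, Akr1cl an aldo-keto reductase, and Fdx1 the ferredoxin that passes electrons to Cyp11a1. Cst8 is a cystatin, Tsc22d1 a regulator of transcription and Gramd1b a sterol transfer protein. Of the 10, Hsd3b1, Cyp11a1 and Fdx1 are on the steroid synthesis list. Star came at rank 21 (0.42), Cyp17a1 at rank 28 (0.37) and Nr5a1 at rank 75 (0.30). At the other end, picked after the values were seen, stood the collagen gene Col1a2 (-0.65) and Bgn (-0.53), which encodes the matrix proteoglycan biglycan. These are descriptions over cells of 1 library that differ in depth, and an effect of free RNA on them was not tested. Of the first 10 genes, 9 were also in the first 10 by Pearson correlation of log values, 9 with columns summed and 7 after thinning. Of the 8 of these genes with a RefSeq promoter, 1 (Cst8) held AAGGTC.

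To place other genes along the Insl3 level, the 696 cells with a UMI were ordered by Insl3 per 10000 UMIs and cut into terciles of 232 cells, beside the 277 cells without one. Median depth was 1892.0 UMIs without Insl3, 4998.5 in the lower tercile, 3639.0 in the middle and 3510.0 in the upper. Of 10375 other genes with at least 20 UMIs, 8.14% stood at least 2-fold higher in the upper tercile than in cells without Insl3, and 11.3% at least 2-fold lower. Steroid synthesis genes were 11 of 15 on the higher side and 1, Akr1c14, on the lower, with a median log2 ratio of 1.998 against -0.06 over all these genes. Cyp11a1 went from 150 CPM without Insl3 through 704 and 2807 to 4045 CPM in the upper tercile. Hsd3b1 went from 105 to 3690 CPM and Cyp17a1 from 31.9 to 2288 CPM, a ratio of 71.7 (50.1 to 106). Star differed less, at 334 and 1334 CPM, and was no higher in the upper tercile than in the middle one (1389 CPM). Fdx1 was 7.46 times higher (6.40 to 8.75). Por, Cyb5a and Tspo, which serve many tissues, stayed within 2-fold.

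Genes that adult Leydig cells carry went the same way in 5 of 7 cases. Hsd17b3 and Hsd3b6 are among these 5 and were already counted with the steroid synthesis genes. Prlr, the prolactin receptor, went from 49.99 to 536 CPM, and Ptgds, a prostaglandin D synthase, from 283 to 3608 CPM. Hsd17b3, which makes testosterone in adult cells, was low throughout, with 69 UMIs on day 14 of which 2 lay in cells without Insl3 and 37 in the upper tercile. Hsd11b1 was on the lower side, at 90.4 against 44.8 CPM. Among regulators, 3 of 15 were at least 2-fold higher and 4 lower. The 3 were Lhcgr, Gata6 and Nr5a1. Lhcgr went from 4.25 to 95.2 CPM (4 and 134 UMIs), Gata6 from 4.25 to 41.2 CPM, and Nr5a1 from 43.6 to 166 CPM. Nr2f2, a nuclear receptor of stromal progenitors, was at 154 CPM without Insl3 and 52.6 CPM in the upper tercile. Of the fetal Leydig genes, Gsta3 was at 163 and 503 CPM and Thbs2 at 37.2 and 16.3 CPM, and the other 2 listed had too few counts.

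Stromal and myofibroblast genes were 7 of 9 on the lower side. Acta2, smooth muscle actin, was at 352, 114, 11.2 and 1.42 CPM over the 4 sets, and Tagln at 114 CPM without Insl3 and 0.710 CPM in the upper tercile. Tcf21, the marker of the interstitial progenitors from which such cultures start, was at 33.0 and 2.13 CPM (31 and 3 UMIs). Pdgfra was at 211 and 56.8 CPM, while Ly6a, which encodes the Sca1 antigen used in the sort, was at 413 and 408 CPM. The 1 gene on the higher side was Thy1, with 1 UMI without Insl3 and 17 in the upper tercile. Of 6 cycling genes, 4 were within 2-fold, Top2a was higher and Cdk1 lower. Markers of other cell types were low or on the side without Insl3. Of the 6 macrophage genes, Lyz2 had 1032 of its 1063 UMIs on day 14 in cells without Insl3, but the 4 cells with 2 or more macrophage genes held 1029 of all its UMIs. C1qa had 1 UMI. Germ cell genes Prm1, Prm2 and Tnp1 stood between 7.10 and 17.8 CPM in the upper tercile and between 9.57 and 20.2 CPM without Insl3. Sox9, the 1 Sertoli gene with enough counts, and the endothelial gene Cdh5 were lower, and Amh was at 0 on all days. Of the adrenal cortex genes, Cyp21a1 had 3 UMIs and Cyp11b1 4 on day 14.

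**Figure D5:**
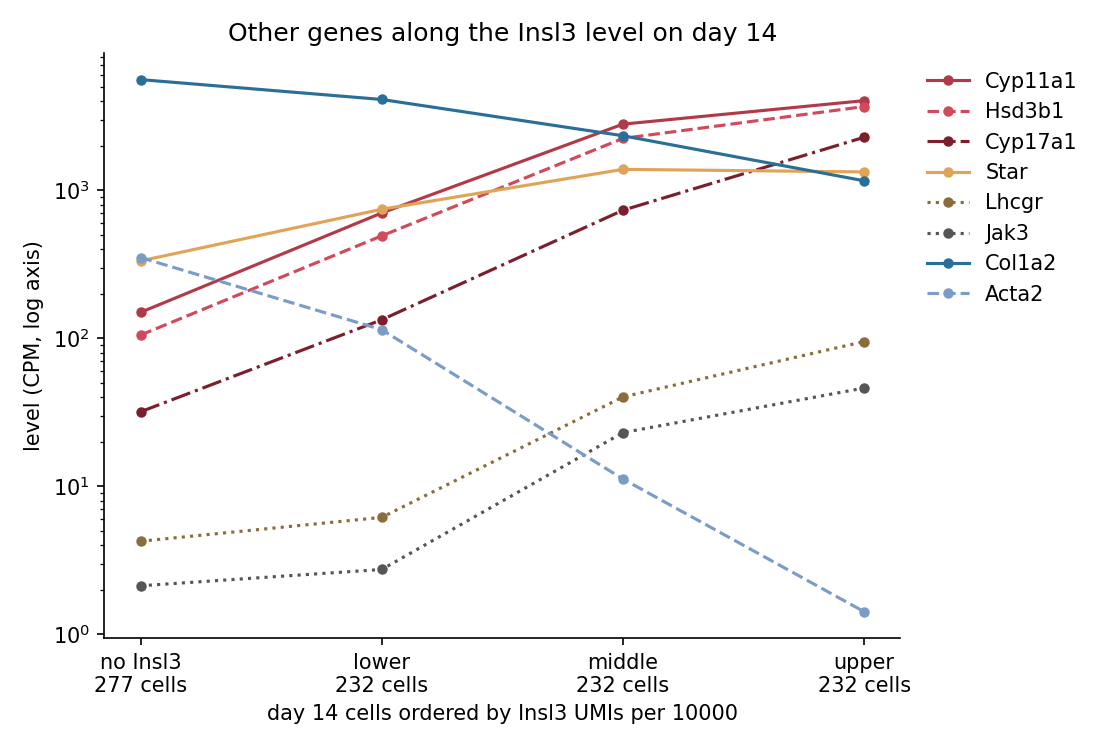
Level of 8 genes in CPM on a log axis in day 14 cells without Insl3 (277) and in the lower, middle and upper terciles (232 each) of the cells with it, ordered by Insl3 UMIs per 10000. Cyp17a1, Cyp11a1 and Hsd3b1 climb to 2288, 4045 and 3690 CPM, while Acta2 drops to 1.42 CPM and Star levels off.

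Of the other relaxin family genes, only Insl6 had more than 7 UMIs on any day. Insl6, a relative known from male germ cells, stood at 5.44, 9.29 and 17.5 CPM by day, and at 11.7 and 19.9 CPM without Insl3 and in the upper tercile (ratio 1.70, interval 0.821 to 3.78). Its day 14 level was 3.21 times that of day 4 (2.33 to 4.45). On days 4 and 7 Insl3 itself stood lower than Insl6, at 3.39 and 7.83 CPM, with overlapping counting intervals. Rln1 had 1 UMI on each day, and the receptors Rxfp1 and Rxfp3 had at most 7. Rxfp2, Rxfp4, Rln3 and Insl5 were not among the listed genes.

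Jak3, the gene that shares its 3′ end with Insl3, had 12, 26 and 106 UMIs by day (0.947, 2.24 and 19.9 CPM). On day 14, 104 of the 106 lay in cells with Insl3, at 23.7 CPM (19.4 to 28.7) against 2.13 CPM in cells without it, and Jak3 went from 2.13 to 46.2 CPM between the extremes of the Insl3 order. On day 7 it was 29.4 CPM (11.8 to 60.5) in cells with Insl3 and 1.67 CPM in the others. On day 4 the 10 cells with Insl3 held 0 Jak3 UMIs (interval up to 49.99 CPM), and all 12 lay in the 2970 others. Whether these counts are Jak3 transcripts or reads of the common end was not tested. Jak3 UMIs numbered 27.9% of the Insl3 UMIs on day 4, 28.6% of those on day 7 and 1.11% on day 14. The next genes within 50 kb, B3gnt3, Unc13a and Fcho1, stood between 0.376 and 2.44 CPM on day 14.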

How the data were processed

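Single-cell RNA was measured by Drop-seq in 1 library each for days 4, 7 and 14, and p-values were not computed since there is no replicate. The authors aligned reads to GRCm38 with STAR (2.5.2a in the submitters' notes, another release in the methods) and made UMI counts per gene and barcode with Drop-seq tools. The notes also name Picard 2.6.0 and SAMtools 1.2. The annotation release is not given in the sources used here. The deposited counts are raw. The merged table holds the same counts for filtered cells, with 0 entries that differ, and its 495 columns of no sample used here entered no step.

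Levels are summed UMIs per 1000000 (CPM) with exact Poisson intervals, shares carry Clopper-Pearson intervals, and ratios carry conditional binomial intervals, all at 95%. A count of 0 allows up to 3 counts. Thinned shares are hypergeometric expectations at 1500 UMIs per cell, or 1000 as an alternative. Fold ranks used genes with at least 20 CPM on either day, a 2-fold call and a floor of 3 counts. No doublet caller was run, and the 6% deepest cells of each library were left out as an alternative. The steps were tested on simulated data. Python 3.11.15, NumPy 2.4.6, SciPy 1.17.1, pandas 2.3.3 and Matplotlib 3.10.9 were used with seed 1.

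Totals were 12677110, 11627440 and 5324400 UMIs. Named genes are Insl3, Cyp17a1, Cyp11a1, the lists for steroid synthesis, relaxin family, regulators, adult and fetal Leydig, stromal, cycling, macrophage, germ, Sertoli, endothelial and adrenal genes, neighbours within 50 kb, and the 10 genes most like Insl3. The gene, lists and comparisons were chosen with earlier results of these data known. Alternatives were all barcodes, at least 800 genes with at most 5% mitochondrial UMIs, equal weight per cell, cells without the 1% richest in Insl3, at least 2 Insl3 UMIs, and, added after seeing the data, the summing of columns that share 11 barcode bases.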

Additional observations from a re-analysis of the deposited data

Results flagged for a closer look

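The barcodes of day 14 that the cell filter left out carried Insl3 at 1704 CPM (211 of 123852 UMIs), outside the data the comparisons use and above the barcodes left out on days 4 and 7, which had none. In these barcodes Cyp17a1 stood at 1889 CPM and Cyp11a1 at 2568 CPM, against 856 and 2089 CPM in the cells used, while Acta2 was at 64.6 against 97.1 CPM.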

How the results depend on the processing

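With 1 library per day, no replicate could be left out, and no result has a test. No paired analysis was possible because each day holds 1 library. No cell used shared a barcode with another library, so leaving such cells out could change nothing. Under the other alternatives, 105 of 158 levels, shares and ratios stayed within the counting interval of the reported value, and all 16 ratios between days stayed above 1. These counts include the levels and ratios by day with columns summed, which that step could not change. All 20 observed over expected values for co-detection were above 1. Their Poisson intervals, which do not take account of the fixed margins, included 1 in 3 of them. All 3 were of day 14, namely both pairs with columns summed, and Insl3 with Cyp17a1 under the stricter filter. Results by tercile, number of Leydig genes and enzyme amount were not recomputed here, apart from the summed or thinned values printed beside them. On days 4 and 7 few cells held Insl3 and set its level. Without the 1% of cells richest in Insl3, no Insl3 UMI (0.0 CPM) was left on day 4, and 1.74 and 1622 CPM on days 7 and 14, a ratio of 932. The cells left out were picked by Insl3 itself. On day 4 only 10 cells held Insl3 and 2950 of 2980 cells were kept, so the 0 was fixed in advance. On day 7, 42 cells held Insl3 and 2149 of 2171 were kept, so the ratio of 932 also follows from this choice. The causes of the other shifts were not tested.

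Without the 6% deepest cells, the levels by day were 1.41, 10.2 and 1727 CPM, the ratios 169 (day 14 over day 7), 1225 (over day 4) and 7.24 (day 7 over day 4), and the level in day 14 cells with both enzymes 3187 CPM. With equal weight per cell, the levels were 2.36, 11.4 and 1597 CPM, and the ratios 139.6 (day 14 over day 7) and 4.85 (day 7 over day 4). The share of day 14 cells with Insl3 was 61.2% over all barcodes and 75.6% under the stricter filter.

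Thinned to 1500 UMIs, cells with Insl3 made up 1.2% and 62.2% on days 7 and 14, and on day 14, 23.7% and 62.7% of them held Cyp17a1 and Cyp11a1. At 1000 UMIs these were 0.845%, 53.2%, 22.0% and 59.0%. The richest 10% by Insl3 per UMI, unthinned and with equal weight per cell, were also read on day 14. They held 37.3% of the summed level in cells of at least 1500 UMIs and 39.3% in cells of at least 1000. With at least 2 Insl3 UMIs the shares with Insl3 were 1.013% and 57.0%, the shares of these with Cyp17a1 and Cyp11a1 on day 14 were 35.7% and 76.4%, and that with Cyp11a1 on day 7 was 86.4%. With columns that share 11 barcode bases summed, day 14 gave 79.2% with Insl3, 38.9% and 74.4% of these with Cyp17a1 and Cyp11a1, 2755 CPM with both enzymes and 48.3% of Insl3 in the richest groups. Summed and thinned to 1500 UMIs, the shares with Insl3 were 1.12% and 59.7%, and those with the enzymes 24.96% and 61.2%. In unthinned groups of at least 1500 UMIs, the richest 10% by Insl3 per UMI held 39.1% of the summed level.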
